A study of Homo sapiens with 12 samples.

Results

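The regulators of G protein signalling examined here were 10 protein-coding genes, RGS2, RGS3, RGS4, RGS5, RGS10, RGS12, RGS14, RGS16, RGS19 and RGS20. They were taken from the expression table by gene symbol and gene type, out of 17665 protein-coding genes and 32152 genes listed in all. RGS5 has a further entry that is typed antisense, and its values are given separately. All 10 genes reached the level required for testing, an RPKM (reads scaled by gene model length and by library total) of at least 0.5 in at least 2 of the 12 libraries. RGS16 reached it only through its 2 MEK5DD libraries in MDA-MB-231 cells, so that a difference there was a condition of its being tested.

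RNA was sequenced from MDA-MB-231 and Hs-578T, established human cell lines of triple negative breast cancer, a class defined by the absence of hormone receptors and of HER2 amplification. Each line contributed 6 libraries, with 2 each for parental cells, for ERK5-ko and for MEK5DD as labelled. ERK5, encoded by MAPK7, is a mitogen-activated protein kinase, and the knockout lines were made with Cas9 and guides against MAPK7. MEK5 is the kinase that activates ERK5, and MEK5DD denotes its constitutively active form. The series set loss of ERK5 and activation of its upstream kinase beside parental cells. The study's stated main objective was what ERK5 deletion does to the extracellular matrix, and its methods describe no sequencing of MEK5DD cells. The MDA-MB-231 ERK5-ko line was a single surviving clone according to the study's methods, and which Hs-578T clone was sequenced is not stated. In MDA-MB-231 the libraries came from passages 29 and 30 for parental cells, 7 and 8 for ERK5-ko, and 10 and 11 for MEK5DD. In Hs-578T they came from passages 83 and 84 for parental cells and from passages 8 and 9 for both ERK5-ko and MEK5DD. By the study's methods, the ERK5-ko lines were made from parental cells of higher passage than these ERK5-ko labels. The ERK5-ko passages were therefore not counted from the same start as the parental ones. How the MEK5DD passages were counted is not stated. Label, clone and passage cannot be told apart in any comparison with parental cells. Between ERK5-ko and MEK5DD cells, label and clone cannot be told apart either, and in MDA-MB-231 their passages also differed. Replicates were successive passages, and nothing states that they were separate cultures, so the p-values measure the spread between such libraries, which may be technical.

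RGS proteins act on heterotrimeric G proteins. A receptor at the cell surface loads the G alpha subunit with GTP, which releases it from the beta and gamma subunits, and an RGS domain speeds the hydrolysis of that GTP and so ends the signal. The R4 members RGS2, RGS4, RGS5 and RGS16 are small and consist of little more than this domain, whereas RGS3, of the same family, has long isoforms with further domains. R12 members (RGS10, RGS12 and RGS14) include the large scaffolds RGS12 and RGS14, which also bind inactive G alpha through a GoLoco motif. RZ members (RGS19 and RGS20) carry a cysteine string. In tissues RGS5 is best known as a marker of pericytes and vascular smooth muscle, RGS2 for its preference for G alpha q, and RGS10 for its abundance in brain and immune cells.

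RGS4 and RGS5 are convergent neighbours on chromosome 1 (GRCh38). RGS4 (ENSG00000117152.13) runs from 163068775 to 163076802 on the plus strand and RGS5 (ENSG00000143248.12) from 163111121 to 163321791 on the minus strand, with 34318 bases between their ends. In GENCODE 29 the protein-coding RGS5 entry has 12 transcripts, 6 of them of protein-coding type. An outer start site is used by 5 of the 12 (1 of protein-coding type) and an inner start site, 119 kb downstream, by another 5 (4 of protein-coding type). RGS16 (ENSG00000143333.6) lies elsewhere on the same chromosome, from 182598623 to 182604408 on the minus strand. The RefSeq promoter windows (GRCh38.p14, 250 bases before to 50 bases after a start site) of these genes are printed because RGS5, RGS4 and RGS16 had the largest rises against parental cells. Capitals mark TATAAA, the only searched motif present in them.

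RGS5 inner start, chr1:163202867-163203166, minus strand: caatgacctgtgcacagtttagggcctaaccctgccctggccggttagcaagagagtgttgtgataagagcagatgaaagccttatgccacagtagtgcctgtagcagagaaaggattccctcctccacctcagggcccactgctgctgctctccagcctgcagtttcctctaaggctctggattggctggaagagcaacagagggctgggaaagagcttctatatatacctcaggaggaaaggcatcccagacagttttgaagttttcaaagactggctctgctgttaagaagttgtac
RGS5 outer start, chr1:163321686-163321985, minus strand: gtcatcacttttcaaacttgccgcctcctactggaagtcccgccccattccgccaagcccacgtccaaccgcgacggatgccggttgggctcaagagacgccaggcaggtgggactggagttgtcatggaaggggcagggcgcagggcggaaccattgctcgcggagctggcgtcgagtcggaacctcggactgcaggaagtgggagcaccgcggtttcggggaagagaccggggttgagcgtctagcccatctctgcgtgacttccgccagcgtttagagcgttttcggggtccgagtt
RGS4, chr1:163069111-163069410, plus strand: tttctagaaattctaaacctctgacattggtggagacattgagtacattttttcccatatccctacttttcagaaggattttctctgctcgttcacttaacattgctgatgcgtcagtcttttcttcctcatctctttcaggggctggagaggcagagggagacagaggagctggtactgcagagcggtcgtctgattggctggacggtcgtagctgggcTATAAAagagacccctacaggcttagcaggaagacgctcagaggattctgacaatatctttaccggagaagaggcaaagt
RGS16, chr1:182604340-182604639, minus strand: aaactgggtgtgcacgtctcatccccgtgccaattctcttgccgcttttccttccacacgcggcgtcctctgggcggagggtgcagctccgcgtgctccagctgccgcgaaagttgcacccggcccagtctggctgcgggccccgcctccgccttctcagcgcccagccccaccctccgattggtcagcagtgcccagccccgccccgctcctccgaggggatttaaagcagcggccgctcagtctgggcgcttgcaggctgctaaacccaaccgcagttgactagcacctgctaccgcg

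These windows differ in base composition. The inner RGS5 window holds 51.0% G and C and the outer 63.0%, the RGS4 window 47.0% and the RGS16 window 67.0%, against a median of 58.7% over 35116 promoter windows. The RGS4 window printed, which is 1 of 4 for that gene, has TATAAA beginning 30 bases before the start site. Windows of 9 of the genes were searched, 23 in all, on both strands. TATAAA was found in 1 other of them, an RGS3 window, 166 bases before its start site. It occurs in 11.5% of all windows. The CRE motif TGACGTCA (1.85% of all windows), the AP-1 motif TGANTCA (7.71%), the MEF2 motif (2.99%) and the CArG box (1.29%) were not found in the 23 windows.

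Libraries held 20248162 to 27791195 reads, of which 92.05% to 94.5% fell on listed genes. MAPK7 transcripts were no scarcer in ERK5-ko libraries, as labelled, than in parental ones: the mean RPKM was 17.0 against 13.8 in parental MDA-MB-231 cells and 18 against 15 in Hs-578T cells (adjusted p = 0.0709 and 0.0624, limma with Benjamini-Hochberg adjustment; 0.0274 and 0.0252 when the replicate number was a block). These RNA values therefore check neither knockout label. The study's methods name both qRT-PCR and Western blot as the checks of the knockout clones. By Western blot it reported significantly less ERK5 protein in both ERK5-ko lines, which RNA levels do not measure. MAP2K5, which encodes MEK5, rose from 13.2 to 186 RPKM in MDA-MB-231 MEK5DD cells (adjusted p = 3.31e-10) and from 15.8 to 22.5 in Hs-578T MEK5DD cells (adjusted p = 0.00492), a difference under 1.5-fold in the second line. ESR1 was at most 0.12 RPKM and PGR at most 0.348, while VIM, which encodes the mesenchymal intermediate filament vimentin, lay between 1600 and 4070. EPCAM, an epithelial surface protein, was at most 25.7 RPKM. Of the other epithelial genes checked, CDH1 was at most 1.16 RPKM and KRT18 lay between 141 and 692. ERBB2, which encodes HER2, lay between 27.8 and 56.8 RPKM. In bulk RNA, fewer cells carrying a transcript and less of it per cell cannot be told apart.

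Among the RGS genes, RGS10 and RGS3 had the highest levels. In parental MDA-MB-231 cells RGS10 stood at 101 ± 1.21 RPKM (SD, n = 2), ahead of RGS3 at 27.3 ± 3.17, RGS12 at 20 ± 0.99 and RGS19 at 19.7 ± 0.932. The last pair differed by less than the spread between replicates. RGS14 (8.01 ± 0.484) and RGS4 (7.15 ± 0.111) formed a middle group, followed by RGS20 at 5.15 ± 0.0364. RGS5 (3.12 ± 0.0785) and RGS2 (2.94 ± 0.11) were close to each other, with ranges that did not overlap, and RGS16 was lowest at 0.164 ± 0.0198, or 9 and 12 reads. Parental Hs-578T cells had another order. RGS3 led at 48.8 ± 0.843 RPKM, then RGS10 at 30.9 ± 2.74 and RGS19 at 16.4 ± 2.72. RGS12 (11 ± 2.2), RGS14 (10.7 ± 0.151) and RGS5 (10.1 ± 1.94) could not be ordered within their spread. RGS2 followed at 6.47 ± 0.158, RGS20 at 4.83 ± 0.36 and RGS4 at 2.1 ± 0.493, and RGS16 stood at 0.103 ± 0.0331.

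**Figure D1:**
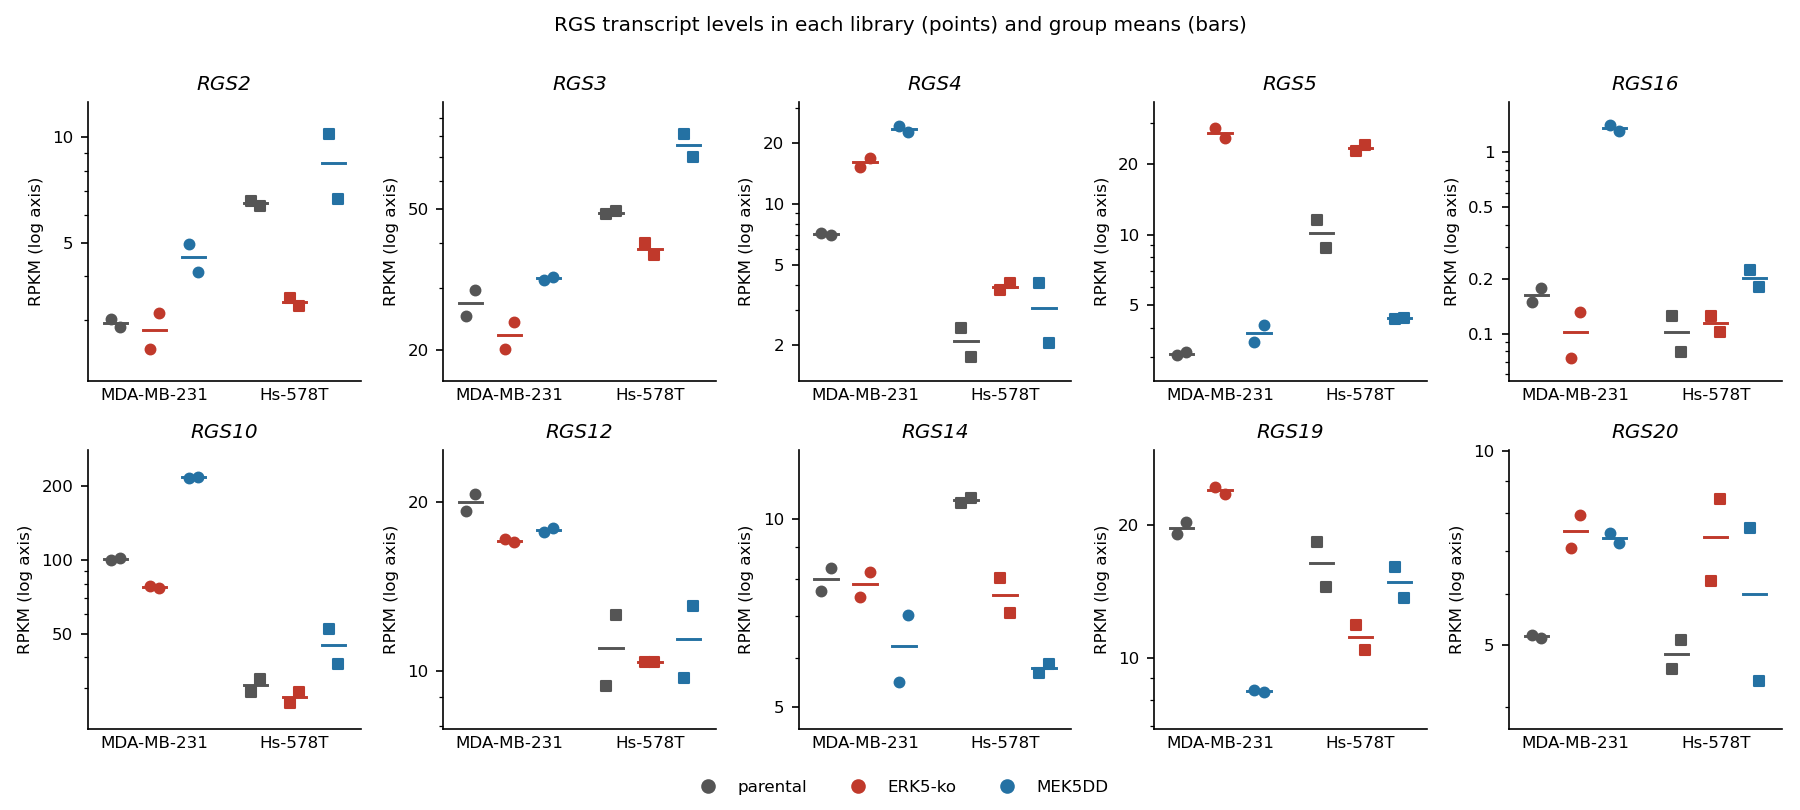
RPKM of the 10 RGS genes on log axes, with a point for each library and a bar for each group mean (circles for MDA-MB-231, squares for Hs-578T; grey for parental, red for ERK5-ko, blue for MEK5DD). RGS5 is highest in the ERK5-ko libraries of both lines, at 25.9 to 28.5 RPKM for MDA-MB-231 and 22.6 to 24.1 for Hs-578T, and RGS16 exceeds 1 RPKM only in the MDA-MB-231 MEK5DD libraries.

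The parental lines were compared first. Calls required an adjusted p below 0.05, together with a fold over 1.5 for genes called higher or under 0.5 for genes called lower, on the scale of log2(RPKM + 0.5). RGS10, RGS4 and RGS12 were called higher in parental MDA-MB-231 than in parental Hs-578T cells, 3 genes where 34.1% of all tested genes were called in that direction, and RGS5 and RGS2 were called lower, 2 genes where 15.4% were. The log2 differences were 1.70 for RGS10 (SE 0.132, adjusted p = 2.44e-07 by limma with Benjamini-Hochberg adjustment), 1.57 for RGS4 (SE 0.22) and 0.85 for RGS12 (SE 0.147). They were -1.55 for RGS5 (SE 0.131, adjusted p = 5.46e-07) and -1.02 for RGS2 (SE 0.174). The RGS2 difference lay at the edge of the fold threshold: it was -0.92 with a pseudocount of 1 and -0.99 without MDA-MB-231 parental replicate 2, and was not called in either case, nor without Hs-578T parental replicate 1. RGS3 (-0.83) and RGS14 (-0.40) passed the adjusted p with a fold above 0.5, as did 31.3% of all genes on the negative side and 46.0% on the positive side when no fold was required. The median over all genes was 0.19 in this comparison and -0.02 after median-ratio scaling, and the differences are to be read against that shift.

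Against parental cells of the same line, the counts of RGS genes called were small. In MDA-MB-231 ERK5-ko cells 2 of 10 were higher (RGS5 and RGS4) and 0 lower, where 2.80% and 1.07% of the 13737 tested genes were called. In Hs-578T ERK5-ko cells the same 2 genes were higher and 0 lower, where 9.35% and 3.27% were called. MDA-MB-231 MEK5DD cells had 3 higher (RGS4, RGS16 and RGS10) and 1 lower (RGS19), beside 7.64% and 6.31% of all genes. RGS16 was tested only through these MEK5DD libraries, so its call is a description. Hs-578T MEK5DD cells had 1 higher (RGS3) and 1 lower (RGS5), beside 2.90% and 1.49%. Both engineered cell types were compared with the same parental libraries, and the columns of values are given side by side for that reason. Genes that passed the adjusted p without the fold are given below with their values; over all genes, 6.91% passed as higher in MDA-MB-231 ERK5-ko, 19.7% passed as lower in Hs-578T ERK5-ko, 17.5% as higher and 23.8% as lower in MDA-MB-231 MEK5DD, and 6.44% and 17.0% in Hs-578T MEK5DD. The median log2 difference of the 10 genes was -0.04 and -0.12 in the ERK5-ko comparisons of MDA-MB-231 and Hs-578T, with medians over all genes of -0.04 and 0.01. It was 0.36 and 0.23 in the MEK5DD comparisons, with -0.01 and -0.08 over all genes.

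RGS5 had the largest log2 difference of the set. In MDA-MB-231 cells its RPKM was 3.06 and 3.17 in the parental libraries, 28.5 and 25.9 in those labelled ERK5-ko, and 3.49 and 4.13 in MEK5DD. The lowest ERK5-ko library lay far above both other groups. RGS5 thus rose by 2.93 on the log2 scale in ERK5-ko cells (SE 0.131, adjusted p = 3.04e-07, limma with Benjamini-Hochberg adjustment), an RPKM ratio of 8.72, and from the 8th to the 2nd place in the order of RGS levels in this line. The reads behind these values were 109 and 127 in parental libraries against 926 and 930. MEK5DD differed from parental by 0.25 (95% confidence interval -0.04 to 0.54, adjusted p = 0.154).

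In Hs-578T cells RGS5 moved in both directions. Its RPKM was 11.5 and 8.78 in parental libraries, 22.6 and 24.1 in ERK5-ko and 4.39 and 4.43 in MEK5DD, and the 3 groups did not overlap. Relative to parental cells RGS5 rose by 1.17 in ERK5-ko (SE 0.131, adjusted p = 4.65e-05, limma) and fell by 1.10 in MEK5DD (SE 0.131, adjusted p = 0.000207). Without Hs-578T parental replicate 1 the MEK5DD difference was -0.92, still past the adjusted p (0.00128) but not past the fold threshold. The ERK5-ko and MEK5DD cells of this line carry the same passage labels, and between them RGS5 differed by 2.28 (SE 0.131, adjusted p = 1.78e-07). In MDA-MB-231 cells the same contrast gave 2.68 (SE 0.131, adjusted p = 1.86e-08). At 23.3 ± 1.04 RPKM in Hs-578T and 27.2 ± 1.85 in MDA-MB-231, the ERK5-ko cells of the lines were close in level, whereas parental cells differed 3.26-fold.

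**Figure D2:**
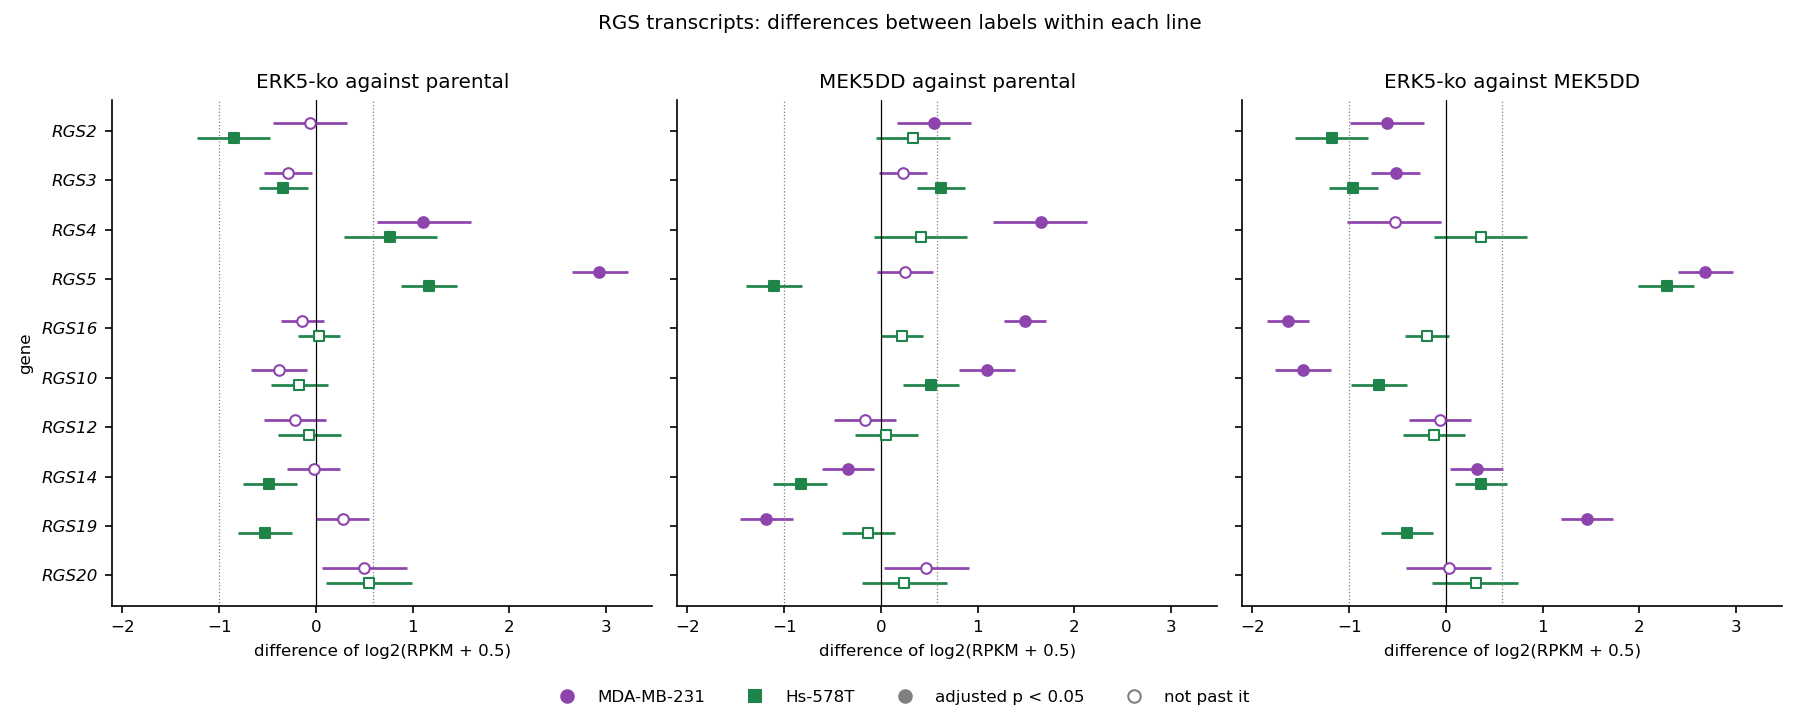
Differences of log2(RPKM + 0.5) between labels within each line for the 10 RGS genes (points, with 95% confidence intervals; circles for MDA-MB-231, squares for Hs-578T; filled where the adjusted p is under 0.05), with dotted lines at the fold thresholds of 1.5 and 0.5. RGS5 lies at 2.93 and 1.17 for ERK5-ko against parental, and at 2.68 and 2.28 for ERK5-ko against MEK5DD.

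RGS5 being a marker of mural cells, 10 genes of pericytes and smooth muscle were read beside it. The smooth muscle myosin MYH11 was at most 0.0459 RPKM in any library, and DES at most 0.372. The summed level of the list was 108 to 110 RPKM in parental, 113 to 123 in ERK5-ko and 48.8 to 50.3 in MEK5DD libraries of MDA-MB-231, and 421, 665 to 738 and 270 to 340 in those of Hs-578T. ACTA2, which encodes smooth muscle actin, moved with RGS5 in Hs-578T cells, with 140 RPKM in parental, 476 in ERK5-ko and 56.5 in MEK5DD cells (log2 differences from parental 1.77 and -1.30, adjusted p = 1.7e-06 and 4.86e-05, limma). In MDA-MB-231 ERK5-ko cells ACTA2 rose from 2.92 to 5.68 RPKM (adjusted p = 0.000932). Of 7 tested genes of the list, 1 was called higher and 0 lower in MDA-MB-231 ERK5-ko, 2 higher (ACTA2 and CNN1) and 0 lower in Hs-578T ERK5-ko, 0 higher and 3 lower in MDA-MB-231 MEK5DD, and 1 higher (CNN1) and 1 lower (ACTA2) in Hs-578T MEK5DD. Over all genes the shares called higher and lower were, in that order, 2.80% and 1.07%, 9.35% and 3.27%, 7.64% and 6.31%, and 2.90% and 1.49%. In Hs-578T ERK5-ko cells 3 others were lower by adjusted p alone, as were 19.7% of all genes: KCNJ8 (-0.87, adjusted p = 0.00252), NOTCH3 (-0.84, adjusted p = 0.00362) and MCAM (-0.24, adjusted p = 0.0425), and the median of the list was -0.24. The pericyte receptor gene PDGFRB stood at 204, 163 and 184 RPKM in parental, ERK5-ko and MEK5DD cells of Hs-578T (adjusted p = 0.0838 and 0.437 against parental). In MDA-MB-231 it stood at 14.6, 11.3 and 1.96 RPKM in the same order (adjusted p = 0.112 and 5.98e-08, limma). The MEK5DD difference of PDGFRB there was -2.62. CSPG4 (-1.39) and MCAM (-1.06) were also called lower in MDA-MB-231 MEK5DD cells. Endothelial CDH5 was at most 0.0259 RPKM and VWF at most 0.214, with summed endothelial levels of 1.05 to 6.75, and leukocyte PTPRC was at most 0.396 and CD3E at most 0.0247, while CD68 lay between 23.2 and 108 RPKM. The part of such cell types in the RGS5 result was not tested.

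The antisense-typed RGS5 entry (ENSG00000232995.7, chromosome 1 from 163244505 to 163321894) lies on the same strand as RGS5 itself. It overlaps the outer part of RGS5 and extends slightly past its outer end. Of its 9 transcripts in GENCODE 29, 8 begin at the outer start, and it shares 534 exonic bases with the protein-coding entry. Its levels were low, with 28 to 85 reads a library. In MDA-MB-231 it stood at 1.58 ± 0.0524 RPKM in parental, 1.88 ± 0.27 in ERK5-ko and 3.06 ± 0.1 in MEK5DD cells, and in Hs-578T at 2.99 ± 0.146, 4.48 ± 0.405 and 1.87 ± 0.0174 (SD, n = 2). In MDA-MB-231 ERK5-ko cells, where the protein-coding entry was 8.72 times the parental level, this entry differed by 0.19 on the log2 scale (adjusted p = 0.337, limma over all gene types). In MDA-MB-231 MEK5DD cells it rose by 0.78 (adjusted p = 0.000485). In Hs-578T it followed the direction of the protein-coding entry, at 0.51 in ERK5-ko and -0.56 in MEK5DD (adjusted p = 0.00705 and 0.00874), neither past the fold threshold.

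**Figure D3:**
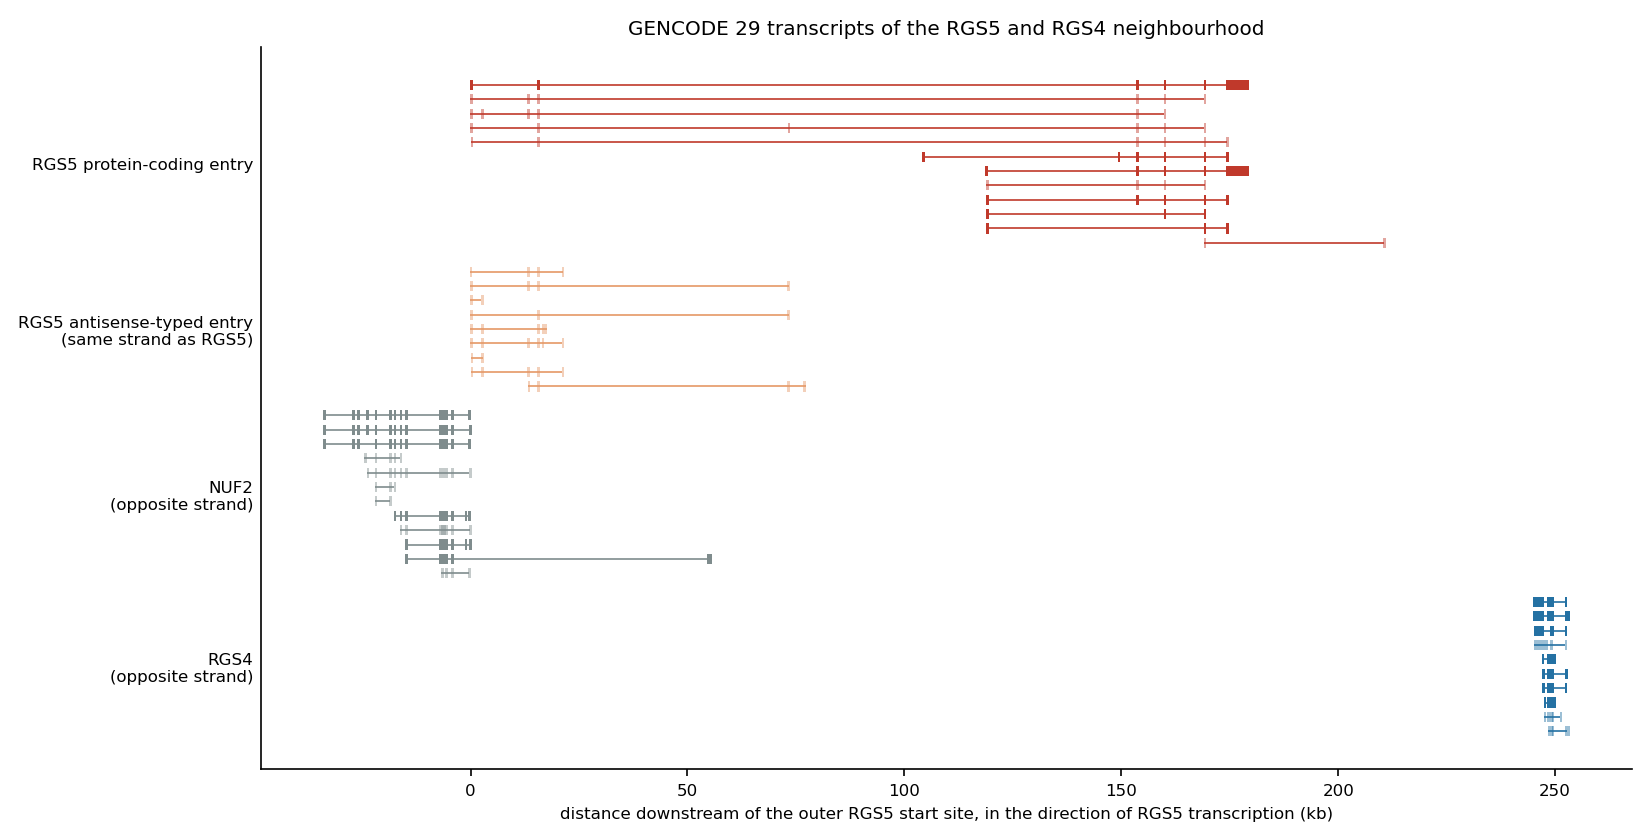
GENCODE 29 transcripts of the protein-coding RGS5 entry, the antisense-typed RGS5 entry, NUF2 and RGS4 (boxes are exons, paler for transcripts not of protein-coding type), plotted by distance in kb from the outer RGS5 start site. The inner start lies 119 kb downstream, and 8 of the 9 antisense-typed transcripts begin at the outer start.

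NUF2, a kinetochore gene on the opposite strand that was chosen after its values were seen, shares the outer end of the locus and was far more abundant, at 15.6 to 124 RPKM. Its log2 differences from parental were -0.73 in MDA-MB-231 ERK5-ko, 0.87 in MDA-MB-231 MEK5DD, 0.86 in Hs-578T ERK5-ko and -0.76 in Hs-578T MEK5DD cells (adjusted p = 0.000277, 1.32e-05, 2.73e-05 and 0.000179, limma). The differences of NUF2 had the sign of those of the antisense-typed entry in 3 of these 4 comparisons, and the sign of those of the protein-coding entry in the same 3. In GENCODE 29 NUF2 shares 0 exonic bases with the protein-coding RGS5 entry and 5 with the antisense-typed entry. The libraries were made with a stranded kit and the strand setting of the counting is not stated. The part of NUF2 reads in either RGS5 value was not tested.

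**Figure D4:**
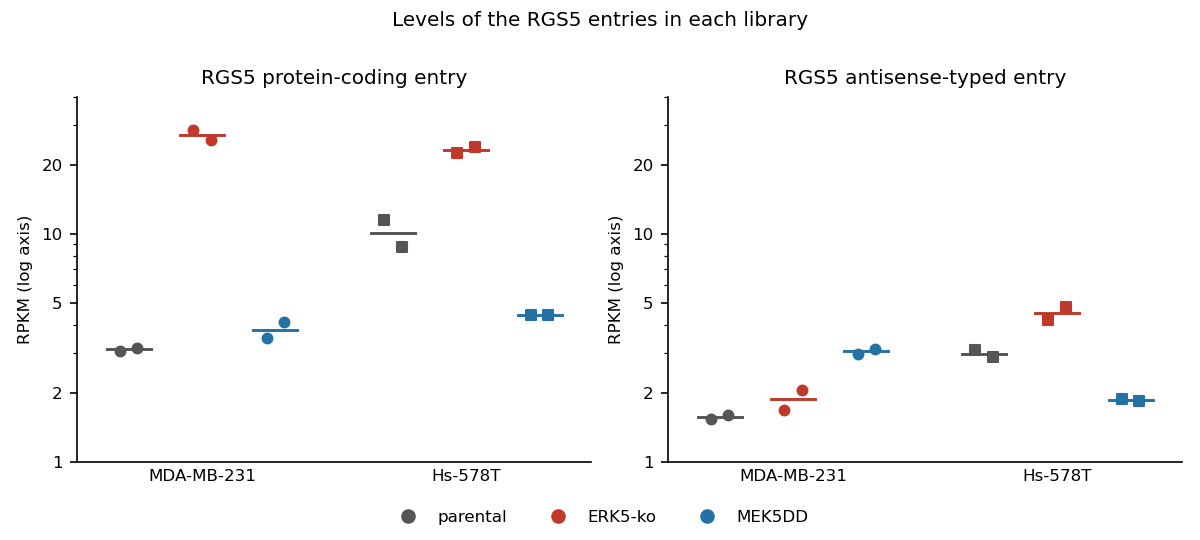
RPKM on log axes of the protein-coding and the antisense-typed RGS5 entries in each library (points) with group means (bars). In MDA-MB-231 the ERK5-ko libraries stand apart at 25.9 to 28.5 RPKM in the protein-coding entry, whereas in the antisense-typed entry they lie at 1.69 to 2.07, below the MEK5DD libraries.

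RGS4, a regulator of Gi- and Gq-coupled signals, was higher than parental in both kinds of engineered MDA-MB-231 cells. Its RPKM was 7.23 and 7.07 in parental, 15.2 and 16.9 in ERK5-ko and 24.3 and 22.6 in MEK5DD libraries, and the 3 groups did not overlap. It rose by 1.11 in ERK5-ko (SE 0.22, adjusted p = 0.00532, limma) and by 1.65 in MEK5DD (SE 0.22, adjusted p = 0.000108). Without MDA-MB-231 ERK5-ko replicate 2 the ERK5-ko difference was 1.04 with an adjusted p of 0.0507. ERK5-ko and MEK5DD cells differed by -0.53 (adjusted p = 0.0589, and 0.0247 when blocked by replicate number).

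In Hs-578T cells RGS4 was scarcer and its replicates less alike. It stood at 2.45 and 1.75 RPKM in parental, 3.75 and 4.06 in ERK5-ko and 4.09 and 2.06 in MEK5DD libraries, so that the MEK5DD pair spanned the other groups. RGS4 rose by 0.77 in ERK5-ko (SE 0.22, adjusted p = 0.0165, limma). This call was lost when the line was fitted alone (adjusted p = 0.115) and without Hs-578T parental replicate 2 (0.0952), ERK5-ko replicate 1 (0.0576) or ERK5-ko replicate 2 (0.104). The MEK5DD difference was 0.41 (adjusted p = 0.206), -0.01 without MEK5DD replicate 1, and 0.83 without MEK5DD replicate 2 (adjusted p = 0.00333), which was called.

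RGS16, a further R4 member, is induced by many stimuli in other cells. It was near the limit of detection everywhere except in MDA-MB-231 MEK5DD cells, with 4 to 12 reads in the other libraries and 83 and 88 reads there. The RPKM in MDA-MB-231 was 0.15 and 0.178 in parental, 0.0732 and 0.132 in ERK5-ko and 1.42 and 1.31 in MEK5DD libraries. RGS16 was higher by 1.49 in MEK5DD cells (SE 0.101), and the ratio of mean RPKM was 8.32. It was tested only through these MEK5DD libraries, so the difference is a description. The log2 value is bound to the pseudocount of 0.5, which exceeds the parental level, and ranged from 1.02 to 2.99 over the alternatives. In Hs-578T the RPKM was 0.103 ± 0.0331 in parental, 0.114 ± 0.0167 in ERK5-ko and 0.203 ± 0.0305 in MEK5DD cells (SD, n = 2), and MEK5DD differed from parental by 0.22 (adjusted p = 0.14).

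RGS3 was the most abundant R4 member in every group except MDA-MB-231 ERK5-ko, where RGS5 exceeded it. In Hs-578T its RPKM was 48.2 and 49.4 in parental, 40.1 and 37.1 in ERK5-ko and 80.9 and 70.0 in MEK5DD libraries, without overlap between groups. It rose by 0.62 in MEK5DD (SE 0.114, adjusted p = 0.00299, limma) and was lower by adjusted p alone in ERK5-ko, at -0.34 (adjusted p = 0.0365, lost in 7 of 22 alternatives). Without MEK5DD replicate 1 the first difference was 0.52, past the adjusted p (0.0173) but under 1.5-fold. In MDA-MB-231 cells RGS3 stood at 25.0 and 29.5, 20.2 and 24.1, and 31.6 and 32.2 RPKM in the same order of labels. Its differences from parental there were -0.29 in ERK5-ko (adjusted p = 0.106, and 0.0353 with the replicate block) and 0.23 in MEK5DD (adjusted p = 0.135). Between ERK5-ko and MEK5DD cells RGS3 differed in both lines, by -0.52 in MDA-MB-231 (adjusted p = 0.00229) and by -0.96 in Hs-578T (adjusted p = 4.37e-05), with folds above 0.5.

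Within Hs-578T, RGS2 was lowest in the ERK5-ko libraries, the group of that line in which RGS5 was highest. The RGS2 RPKM was 6.59 and 6.36 in parental, 3.46 and 3.29 in ERK5-ko and 10.2 and 6.67 in MEK5DD libraries, the ERK5-ko libraries lying below the others of this line. The ERK5-ko difference was -0.85 (SE 0.174, adjusted p = 0.00264, limma), short of the fold threshold. MEK5DD differed from parental by 0.33 (adjusted p = 0.201), by 0.04 without MEK5DD replicate 1 and by 0.62 without MEK5DD replicate 2 (adjusted p = 0.0112). Between ERK5-ko and MEK5DD the difference was -1.18 (SE 0.174, adjusted p = 0.000209) and was called, and -0.89 without MEK5DD replicate 1. In MDA-MB-231 RGS2 stood at 3.02 and 2.86 RPKM in parental, 2.48 and 3.14 in ERK5-ko and 4.96 and 4.13 in MEK5DD libraries. ERK5-ko there overlapped parental (-0.06, adjusted p = 0.867), and MEK5DD passed the adjusted p at 0.55 (0.0255), which 5 of 22 alternatives lost.

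RGS10, of the R12 family, was the most abundant RGS transcript in MDA-MB-231 cells. There it stood at 100 and 102 RPKM in parental, 78.4 and 76.7 in ERK5-ko and 216 and 218 in MEK5DD libraries, 3 groups that did not overlap. It rose by 1.10 in MEK5DD (SE 0.132, adjusted p = 4.74e-05, limma), and ERK5-ko lay below MEK5DD by -1.48 (SE 0.132, adjusted p = 2.59e-06). The ERK5-ko difference from parental was -0.38 (95% confidence interval -0.67 to -0.09, adjusted p = 0.0689). In Hs-578T RGS10 was 29 and 32.8, 26.1 and 28.9, and 52.4 and 37.7 RPKM in the same order. MEK5DD passed the adjusted p at 0.52 (0.0156) without reaching 1.5-fold, and lost it when the line was fitted alone (0.134) or without parental replicate 1 (0.43, adjusted p = 0.0807) or MEK5DD replicate 1 (0.28, adjusted p = 0.0648).

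RGS14 was lower in MEK5DD cells, most clearly in Hs-578T. In that line it stood at 10.6 and 10.8 RPKM in parental, 8.04 and 7.08 in ERK5-ko and 5.68 and 5.87 in MEK5DD libraries, again without overlap. Its differences from parental were -0.83 in MEK5DD (SE 0.124, adjusted p = 0.000843, limma) and -0.48 in ERK5-ko (SE 0.124, adjusted p = 0.0106), both above a fold of 0.5. The ERK5-ko difference was -0.39 without ERK5-ko replicate 2 and did not pass (adjusted p = 0.0975). In MDA-MB-231 the values were 7.67 and 8.35, 7.5 and 8.23, and 5.49 and 7.03. MEK5DD differed there by -0.34 (adjusted p = 0.0465), which was lost in 14 of 22 alternatives. RGS12, the other scaffold, was called in no comparison of labels. Its differences from parental lay between -0.22 and 0.05 in the 4 comparisons, with 95% confidence intervals from -0.54 to 0.10 in MDA-MB-231 ERK5-ko and from -0.27 to 0.38 in Hs-578T MEK5DD.

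RGS19, of the RZ family, fell in MDA-MB-231 MEK5DD cells. It stood at 19.1 and 20.4 RPKM in parental, 24.4 and 23.6 in ERK5-ko and 8.45 and 8.35 in MEK5DD libraries, and the groups did not overlap. The fall in MEK5DD was -1.19 (SE 0.125, adjusted p = 1.67e-05, limma), and ERK5-ko exceeded MEK5DD by 1.46 (SE 0.125, adjusted p = 1.84e-06). ERK5-ko differed from parental by 0.28 (adjusted p = 0.159, and 0.0396 with the replicate block). In Hs-578T RGS19 was lower by adjusted p alone in ERK5-ko, at -0.53 (SE 0.125, adjusted p = 0.00628), with 18.3 and 14.5 RPKM in parental against 11.9 and 10.4. That value did not pass when the line was fitted alone (0.07) or without Hs-578T parental replicate 1 (0.058) or ERK5-ko replicate 2 (0.0702).

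RGS20, the other RZ member, did not pass the adjusted p in any comparison, although its differences from parental passed in some alternatives, 3 of 22 in MDA-MB-231 ERK5-ko, 5 of 22 in Hs-578T ERK5-ko, 3 of 22 in MDA-MB-231 MEK5DD and 1 of 22 in Hs-578T MEK5DD (0.60, adjusted p = 0.0167, without MEK5DD replicate 2). It lies on chromosome 8, and no sequence is shown for it. Its RPKM was 5.15 ± 0.0364 in parental, 7.51 ± 0.638 in ERK5-ko and 7.33 ± 0.187 in MEK5DD cells of MDA-MB-231 (SD, n = 2), with no overlap between parental and either engineered group. In Hs-578T it was 4.83 ± 0.36, 7.36 ± 1.52 and 5.99 ± 2.26. The differences of ERK5-ko from parental were 0.50 for MDA-MB-231 (95% confidence interval 0.06 to 0.94, adjusted p = 0.115, limma) and 0.55 in Hs-578T (0.10 to 0.99, adjusted p = 0.0501). Those of MEK5DD were 0.47 (0.03 to 0.91, adjusted p = 0.0845) and 0.24 (-0.20 to 0.68, adjusted p = 0.434).

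The direct comparison of ERK5-ko with MEK5DD cells called 2 RGS genes higher (RGS5 and RGS19) and 2 lower (RGS16 and RGS10) in MDA-MB-231, where 17.5% and 6.12% of all genes were called. In Hs-578T it called 1 higher (RGS5) and 1 lower (RGS2), where 15.3% and 3.96% were. RGS5 was called higher in both lines. The RGS16 call rests on the MDA-MB-231 MEK5DD libraries through which it was tested. Without a fold threshold, the MDA-MB-231 comparison had 27.1% of all genes higher and 27.9% lower, and the Hs-578T comparison 30.7% and 19.2%. By adjusted p alone, RGS3, RGS10 and RGS2 were lower and RGS14 higher in ERK5-ko than in MEK5DD cells of both lines, whereas RGS19 was higher in the MDA-MB-231 and lower in the Hs-578T contrast (-0.40, adjusted p = 0.0199, limma). The RGS14 differences, 0.32 and 0.36, were lost in 15 and 7 of 22 alternatives.

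Differences between the lines in these effects were tested as an interaction within the same fit. For ERK5-ko, 3 of the 10 genes differed at an adjusted p under 0.05, where 39.8% of all genes did: RGS5 by 1.76 (SE 0.185), RGS19 by 0.80 (SE 0.176) and RGS2 by 0.79 (SE 0.246), in each case more positive in MDA-MB-231 (the RGS2 difference was lost in 7 of 21 alternatives), as were 18.3% of all genes, while 21.5% were more negative. RGS4 rose in both lines, and its interaction was 0.34 (95% confidence interval -0.34 to 1.02, adjusted p = 0.403, limma). RGS14 differed by 0.45 (adjusted p = 0.0609, and 0.0272 with the replicate block). For MEK5DD, 6 of 10 differed, where 39.6% of all genes did. RGS5 (1.35), RGS16 (1.27), RGS4 (1.23), RGS10 (0.58) and RGS14 (0.49) were more positive in MDA-MB-231, and RGS19 (-1.06) was more negative, where 21.3% and 18.2% of all genes passed in these directions. The RGS10 and RGS14 differences were lost in 6 and 15 of 21 alternatives, and that of RGS16 rests on the group through which it was tested. RGS3 differed by -0.39 (adjusted p = 0.0763, and 0.0253 with the replicate block).

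Of 11 further RGS genes, 7 were listed and 4 were tested, RGS6, RGS7, RGS9 and RGS17. RGS6, an R7 member, was present mainly in parental Hs-578T cells. Its mean RPKM was 1.4 in parental Hs-578T, 0.0448 in ERK5-ko and 0.19 in MEK5DD cells. It reached the level required for testing only through its 2 parental Hs-578T libraries, so that a difference there was a condition of its being tested, and its lower calls in both engineered groups are a description. RGS7, of the same subfamily, rose from 0.384 to 1.19 RPKM in MDA-MB-231 MEK5DD cells (adjusted p = 0.000197). In MDA-MB-231 RGS9 stood at 2.42 RPKM in ERK5-ko and 0.9 in MEK5DD cells, a difference of 1.07 (adjusted p = 0.000111). RGS11, RGS18 and RGS22 had at most 9 reads in any library.

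The G alpha subunits, on which the RGS proteins act, were read in the same comparisons with parental cells. Of 12 tested, 0 were called in MDA-MB-231 ERK5-ko cells, 1 was higher in Hs-578T ERK5-ko, 1 higher in MDA-MB-231 MEK5DD and 1 lower in Hs-578T MEK5DD, and the gene was GNAL each time. Of all genes, 2.80% were called higher and 1.07% lower in MDA-MB-231 ERK5-ko, and 9.35% and 3.27% in Hs-578T ERK5-ko. In MEK5DD these shares were 7.64% and 6.31% for MDA-MB-231 and 2.90% and 1.49% for Hs-578T. GNAL encodes the Gs-like subunit of olfactory neurons and stood at 3.5 RPKM in parental, 6.57 in ERK5-ko and 1.02 in MEK5DD cells of Hs-578T, an order shared with RGS5 in that line. In MDA-MB-231 the GNAL values were 0.3, 0.127 and 0.815 RPKM, lowest in ERK5-ko, where RGS5 was highest. The parental lines differed most in GNA15, a promiscuous Gq-class subunit, with 63.6 RPKM for MDA-MB-231 and 0.0395 for Hs-578T cells, and in GNAZ, a classical substrate of RZ proteins, with 0.138 and 16.5. Of 12 tested beta and gamma subunits, GNG11 rose from 31.2 to 47.8 RPKM in MDA-MB-231 ERK5-ko cells (adjusted p = 0.0194, limma) and GNG4 fell from 1.75 to 0.281 in Hs-578T ERK5-ko cells (adjusted p = 7.81e-06). No subunit of this list was called in either MEK5DD comparison with parental, although by adjusted p alone 5 were lower in the MDA-MB-231 comparison and 1 in that of Hs-578T. By adjusted p alone, 23.8% and 17.0% of all genes were lower in these comparisons.

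Among 11 tested effectors, the calls in MDA-MB-231 MEK5DD cells were 1 higher and 2 lower, beside 7.64% and 6.31% of all genes. PLCB1, a phospholipase C that G alpha q activates, rose from 0.0348 to 2.02 RPKM (adjusted p = 6.45e-07, limma), whereas its relative PLCB4 fell from 1.87 to 0.141 (adjusted p = 5.93e-06). The adenylyl cyclase ADCY7 fell from 26.9 to 7.65 (adjusted p = 4.65e-06). In ERK5-ko cells PLCB4 was the only call in MDA-MB-231 (3.31 against 1.87 RPKM) and ADCY5 the only call in Hs-578T (1.31 against 0.459). Of all genes, 2.80% and 9.35% were called higher there. Of 7 receptor kinases and arrestins, which end signalling at the receptor, 2 fell in MDA-MB-231 MEK5DD cells, beside 6.31% of all genes. The 2 were ARRB1, from 35.2 to 2.19 RPKM (log2 difference -3.73, adjusted p = 4.43e-10), and ARRB2, from 30.5 to 13.7 (-1.13, adjusted p = 1.05e-05). The kinase gene ADRBK2 rose from 0.557 to 1.13 RPKM in Hs-578T ERK5-ko cells (adjusted p = 0.00805), and no gene of this list was called in MDA-MB-231 ERK5-ko or Hs-578T MEK5DD cells.

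Of 32 tested G protein-coupled receptors, 2 were called higher and 1 lower in MDA-MB-231 ERK5-ko, 2 higher and 3 lower in Hs-578T ERK5-ko, 5 higher and 7 lower in MDA-MB-231 MEK5DD, and 3 higher and 1 lower in Hs-578T MEK5DD cells. The shares of all genes called in these comparisons were 2.80% and 1.07%, 9.35% and 3.27%, 7.64% and 6.31%, and 2.90% and 1.49%. By adjusted p alone, 7 receptors were higher and 16 lower in Hs-578T ERK5-ko cells, where 19.7% of all genes passed in each direction, and the median of the receptors was -0.31 against 0.01 over all genes. The adenosine receptor gene ADORA2A rose in the ERK5-ko cells of both lines, from 9.58 to 15.4 RPKM in MDA-MB-231 cells and from 9.58 to 23.5 in Hs-578T (adjusted p = 0.0257 and 0.000183, limma). In MDA-MB-231 MEK5DD cells it fell to 0.951 RPKM (adjusted p = 2.29e-07). The chemokine receptor gene CXCR4 fell from 8.16 to 2.6 RPKM in MDA-MB-231 ERK5-ko and to 0.523 in MEK5DD cells (adjusted p = 1.11e-05 and 3.71e-09). In Hs-578T the prostaglandin receptor gene PTGER2 fell from 6.41 to 0.802 RPKM in ERK5-ko cells (adjusted p = 2.73e-08), and the oxytocin receptor gene OXTR rose from 10.7 to 34.6 in MEK5DD cells (adjusted p = 0.000159).

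The genes whose values were most like those of an RGS gene over the 12 libraries were found by the Pearson correlation of log2(RPKM + 0.5), as a description only, since the libraries share lines and labels. For RGS5 they were ACTBL2 (r = 0.904), an actin-like gene, and TGFB2 (r = 0.867), which encodes a transforming growth factor beta. The remaining 6 genes that spanned enough range had closer matches. RGS10 was nearest to FAM35A (r = 0.99), RGS16 to SNCAIP (0.993) and C14orf105 (0.99), and RGS4 to HINFP (0.985) and FTSJ1 (0.983). RGS19 was nearest to CCDC115 (0.989) and C7orf73 (0.978), RGS3 to SARS (0.977) and SMOX (0.976), and RGS2 to ARV1 (0.974) and DDIT4L (0.962).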

How the data were processed

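The 12 RNA-seq libraries, 2 in each of 6 groups by line (MDA-MB-231, Hs-578T) and label, were analysed. The authors deposited RPKM values, 1 column per library. The submitters' processing notes name bcl2fastq, Trimmomatic 0.32, TopHat2 2.1.1, R 3.3.1, DESeq2 1.12.4 and GRCh38; the counting tool, its strand setting and the annotation release are not given in the sources used here. RPKM depends on the gene length used and on the library total, so a few abundant genes can shift all other values.

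The 10 RGS genes, the gene lists and the markers were chosen with earlier results of these data known; called list members (at most 4 by log2 difference in a comparison) and, for RGS genes whose group means spanned at least 1 on the log2 scale, the 2 most correlated coding genes were named, except that 1 such gene and 1 leukocyte marker are not reported here. Values were tested as log2(RPKM + 0.5), which understates changes of low genes, with limma 3.58.1 (trend) in R 4.3.3 over the 13737 protein-coding genes that reached 0.5 RPKM in 2 or more libraries. The fit had 6 group means, 6 residual degrees of freedom and 1 shared spread, with Benjamini-Hochberg adjustment within each comparison. An exact permutation test of 2 against 2 libraries cannot go below p = 0.333 and was not used. The antisense-typed RGS5 entry was taken from the same fit over all gene types.

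Depth was recovered from the RPKM steps: reads came out whole (within 0.001) for 32151 of 32152 genes, and with library totals off for 0 of 500 genes. limma voom on those reads was an alternative, beside other pseudocounts, filters, scalings, single-line fits and leaving out each library. On simulated reads for MDA-MB-231 ERK5-ko against parental, 95% of 200 genes changed 3-fold were called, and 1 of 13537 unchanged genes. The changed genes were drawn only from those with more reads, and all genes shared 1 dispersion. Levels as low as that of RGS16 and differences under 3-fold lie outside that setting. Deviations of same-numbered replicates from their group means correlated at 0.107 to 0.541 in the 6 pairs of groups within lines, so the replicate numbers were taken to pair the samples, and a fit with the number as a block was run. Promoter sequences are from RefSeq (GRCh38.p14) and matched 9 of the 10 genes by symbol; exons are from GENCODE 29. Figures were drawn with matplotlib 3.10.9.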

Additional observations from a re-analysis of the deposited data

Results flagged for a closer look

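Effects of the same label differed between the lines for 9 gene and label pairs, each by a test of the difference itself (limma, Benjamini-Hochberg adjustment; positive values are more positive in MDA-MB-231). For ERK5-ko these were RGS5 (1.76, adjusted p = 3.56e-05), RGS19 (0.80, adjusted p = 0.00426) and RGS2 (0.79, adjusted p = 0.0256). For MEK5DD they were RGS5 (1.35, adjusted p = 0.000181), RGS16 (1.27, adjusted p = 4.41e-05), RGS4 (1.23, adjusted p = 0.00859), RGS10 (0.58, adjusted p = 0.0286), RGS14 (0.49, adjusted p = 0.0437) and RGS19 (-1.06, adjusted p = 0.00071). Among all tested genes 39.8% and 39.6% differed in the same way. The RGS5, RGS4 and RGS19 differences passed in all alternatives run, whereas those of RGS2, RGS10 and RGS14 were lost in 7, 6 and 15 of 21. RGS16 was tested only through its 2 MDA-MB-231 MEK5DD libraries, so its difference is a description. In Hs-578T MEK5DD cells MAP2K5 stood at 22.5 RPKM and in MDA-MB-231 MEK5DD cells at 186, and the part of that gap in the MEK5DD differences was not tested.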

How the results depend on the processing

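Of the single values under the alternatives, 1356 kept their direction and side of the threshold, 100 lost it, 36 gained it and 7 reversed. The reversals all came from leaving out 1 library and concerned differences that had not passed: RGS2 in MDA-MB-231 ERK5-ko (-0.21 to 0.08) and RGS12 in Hs-578T ERK5-ko (-0.26 to 0.13), and in Hs-578T MEK5DD RGS4 (-0.01 to 0.83), RGS20 (-0.12 to 0.60), RGS19 (-0.29 to 0.04) and RGS12 (-0.15 to 0.26). Without a fold threshold the RGS genes called numbered 6 rather than 2 in Hs-578T ERK5-ko, where 19.7% of all genes passed in each direction. They numbered 4 rather than 2 in Hs-578T MEK5DD (6.44% of all genes higher and 17.0% lower). For ERK5-ko against MEK5DD they numbered 7 rather than 4 in MDA-MB-231 (27.1% and 27.9%) and 6 rather than 2 in Hs-578T (30.7% and 19.2%). In MDA-MB-231 MEK5DD 4 were higher and 2 lower (17.5% and 23.8%), and between parental lines 3 and 4 (46.0% and 31.3%). With each line fitted alone, 1 was called in Hs-578T ERK5-ko. When 1 library was left out, the number of RGS genes called moved most in Hs-578T MEK5DD. It also moved in both ERK5-ko comparisons with parental cells. The shares of all genes called in the single-line, leave-one-out and replicate-block fits are not given here. The replicate block changed the side of the threshold for the values named beside their results and for no other RGS value, with 2, 2, 4 and 2 genes called in the comparisons with parental cells. Quantile normalization moved the share of calls that were higher, over all genes, from 54.7% to 65.7% in MDA-MB-231 MEK5DD and from 66.1% to 77.7% in Hs-578T MEK5DD, and median-ratio scaling moved it from 68.8% to 58.1% between parental lines; the causes were not tested. With 2 libraries a group, and 4 to 12 reads for RGS16 outside MDA-MB-231 MEK5DD, small differences were not detectable. A count model on the recovered reads is not reported, since the deposited unit is RPKM.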
